A study of Mus musculus with 8 samples.

Results

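The genes described here are 36 markers of the cells that build vessels: 19 genes of endothelium in general, 4 used for lymphatic endothelium, 6 of pericytes and 7 of smooth muscle. They were listed by symbol and found among the 54418 Ensembl genes of the deposited tables, where all 36 had an identifier and at least 1 count. The RNA came from melanocyte stem cells, the pigment cell reserve of the hair follicle, sorted as live, GFP-positive and non-autofluorescent cells from enzyme-digested dorsal skin at postnatal day 21. The 4 Bmi1-deleted libraries came from mice with floxed Bmi1 (Bmi1fl/fl) and Tyrosinase-Cre, a recombinase under a promoter of the pigment lineage. The 4 control libraries came from Bmi1fl/fl mice without the recombinase. Every mouse also carried Dct-rtTA together with TRE-H2B-GFP, was fed doxycycline pellets and had a mixed background of C57Bl-6 and 129Sv. No label says whether replicates were separate animals, so p-values measure the spread between these samples alone.

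Libraries held between 8882656 and 10368174 counts. Bmi1, the targeted gene and a subunit of Polycomb repressive complex 1, averaged 69.6 ± 0.880 CPM (counts scaled to 1e+06 per library with TMM factors) in Bmi1-deleted and 83.4 ± 10.0 CPM in control libraries (SD, n = 4 each). On the scale per length used below, Bmi1 averaged 113 TPM in Bmi1-deleted and 223 TPM in control libraries, a wider gap than in CPM. All Bmi1-deleted CPM values lay below all control CPM values (permutation test over 70 assignments, exact and two-sided, p = 0.0286, which is the smallest possible), but Bmi1 did not pass the edgeR test across all genes (adjusted p = 0.607). Among 16011 genes tested, 14 rose (0.0874%) and 1 fell (0.00625%). The sorted identity was visible in Dct, at 3219 ± 1401 CPM in Bmi1-deleted and 4997 ± 1295 CPM in control libraries, and in Sox10, at 463 ± 40.7 CPM in Bmi1-deleted and 415 ± 41.5 CPM in control libraries (SD, n = 4 each). Counts of Xist were 10291 in Bmi1-deleted 1, 9810 in control 1 and 10478 in control 3, and 0 to 4 in the other libraries, so Bmi1-deleted 1 was the 1 library of its group with RNA of this X-linked gene of females. The sort as described used GFP, a dead-cell stain and autofluorescence, and names no antibody against vessel cells.

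Endothelial cells line vessels and are recognised by junction proteins such as PECAM1 and VE-cadherin, by receptors for VEGF and angiopoietins, and by transcription factors of the ETS and SOX families. Pericytes wrap capillaries and are recruited through the receptor PDGFRB, while smooth muscle surrounds larger vessels and contracts through actin, smooth muscle myosin and their regulators. In skin the dermis is rich in both, smooth muscle also forms the small muscle that raises the hair, and some of these genes are known in other skin cells as well: CSPG4 is also an antigen of melanoma, and podoplanin (Pdpn) is made by lymphatic endothelium, fibroblasts and keratinocytes.

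Counts of these genes were mostly low. The edgeR filter, which asks for about 10 counts in at least 4 libraries, kept 25 of the 36, with 120 to 38935 counts over all 8 libraries. The 11 others had 1 to 114 counts in all. They were Tek, Emcn, Sox17, Sox18, Erg, Robo4 and Icam2 of the endothelial genes, Lyve1 of the lymphatic genes, and Kcnj8, Abcc9 and Higd1b of the pericyte genes. A count of 0 in a library allows up to 3 counts, or 0.289 to 0.338 CPM by counting error alone. In bulk RNA, fewer cells of a type and less RNA per cell cannot be told apart.

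Set per transcript length, as TPM rescaled so that protein-coding genes sum to 1e+06, the members covered a wide range. Cspg4 led with a mean over the 8 libraries of 175 and ranked at 1098 among 21864 protein-coding genes. Mylk stood at 82.5 and Pdpn at 81.6 on the same scale, so those 3 genes stood apart from the rest. Next came Myl9 at 28.2, Tagln at 20.5, Pecam1 at 16.8, Myh11 at 15.9, Prox1 at 13.9 and Acta2 at 12.1 TPM. All the others were below 8, from Esam at 7.71 to Higd1b at 0.102 TPM. For comparison, Dct had 4452 TPM in Bmi1-deleted and 7018 TPM in control libraries on this scale.

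**Figure D1:**
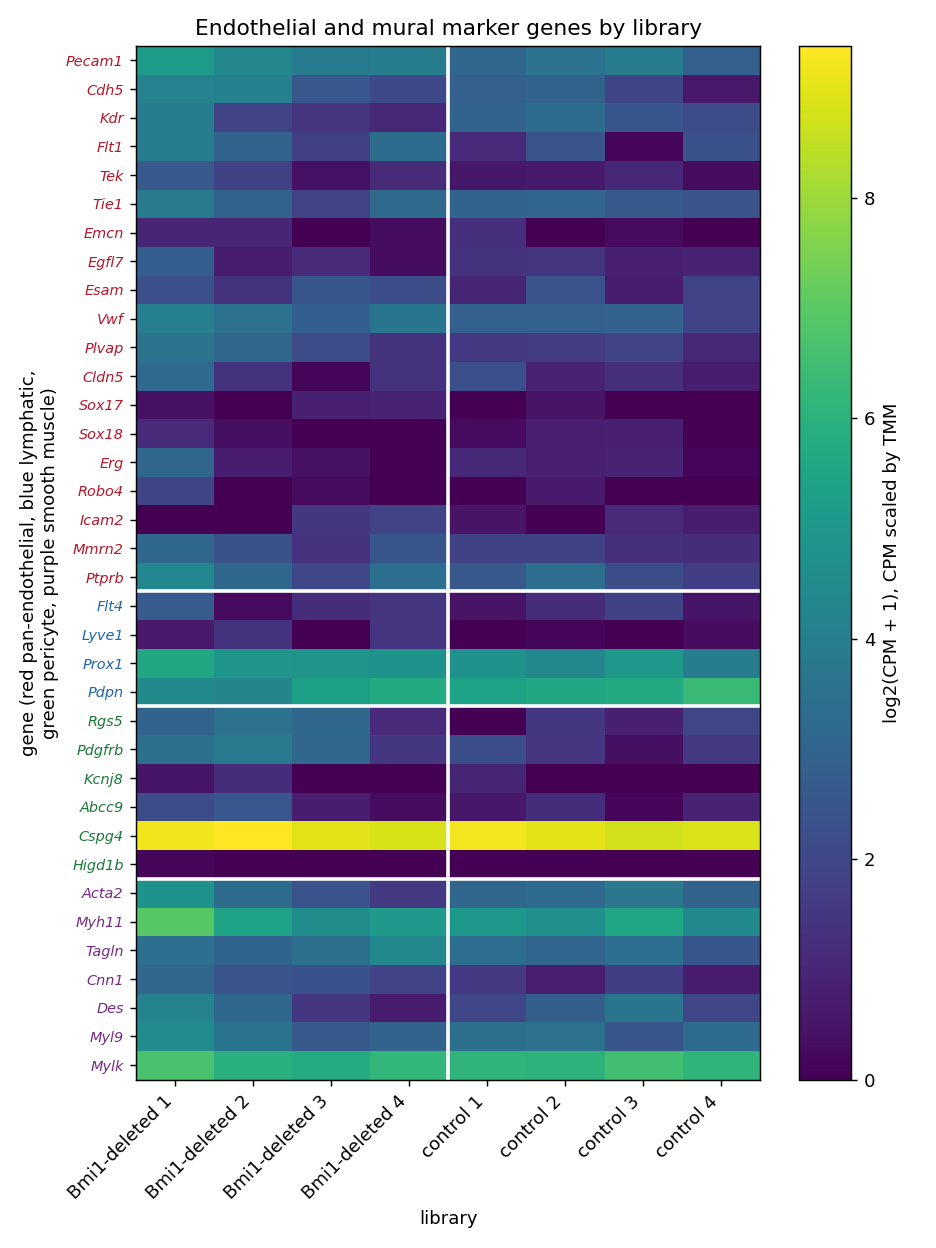
Level of each of the 36 marker genes (rows, coloured by class) in each library (columns), as log2(CPM + 1) with CPM scaled by TMM. Cspg4 is bright in every library, most endothelial and pericyte genes are dark, and the column of Bmi1-deleted 1 is the brightest for 24 of the 36 genes.

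Without a term for the replicate number, 0 members passed the test between Bmi1-deleted and control libraries. Of the 25 tested, 0 had a Benjamini-Hochberg adjusted p under 0.05 in edgeR (range 0.418 for Pdgfrb to 0.985 for Mylk), and DESeq2 called 0 as well. The share called among all tested genes was 0.0937% in edgeR and 0.987% in DESeq2. At an unadjusted p under 0.05, 7 members were higher and 1 was lower, against 4.82% and 3.45% of all genes (8.27% in either direction). Of those 7, Flt1, Rgs5, Pdgfrb and Cnn1 cleared the count filter in all 4 Bmi1-deleted libraries but not in all control libraries, so their inclusion favoured a difference. The others were Pecam1, Vwf and Plvap, and the lower gene was Pdpn. In that fit 22 of the 25 members had a log2 change above 0, against 50.7% of all genes, but Cdh5 and Esam passed the filter in the same way as those 4 genes, so the count is no support. Across all 36 genes, with no filter on counts, 32 had a log2 change above 0 and the median was 0.90, beside 0.00 for the 34973 genes with any count. Of the 36, 24 were highest in Bmi1-deleted 1 and the 11 untested genes had at most 114 counts in all. The count of 32 is thus no support either. The fit with no filter called 5 members, Pecam1, Flt1, Rgs5 and Pdgfrb higher and Pdpn lower (adjusted p = 0.0311, 0.0464, 0.0299, 0.0168 and 0.0108 in that order). It also called 380 genes in the whole table, against 15 with the filter. A further fit took the replicate number of the titles as a block, because same-numbered libraries deviated together, and in that fit 1 member passed, Pdpn, which was lower (adjusted p = 0.0136).

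**Figure D2:**
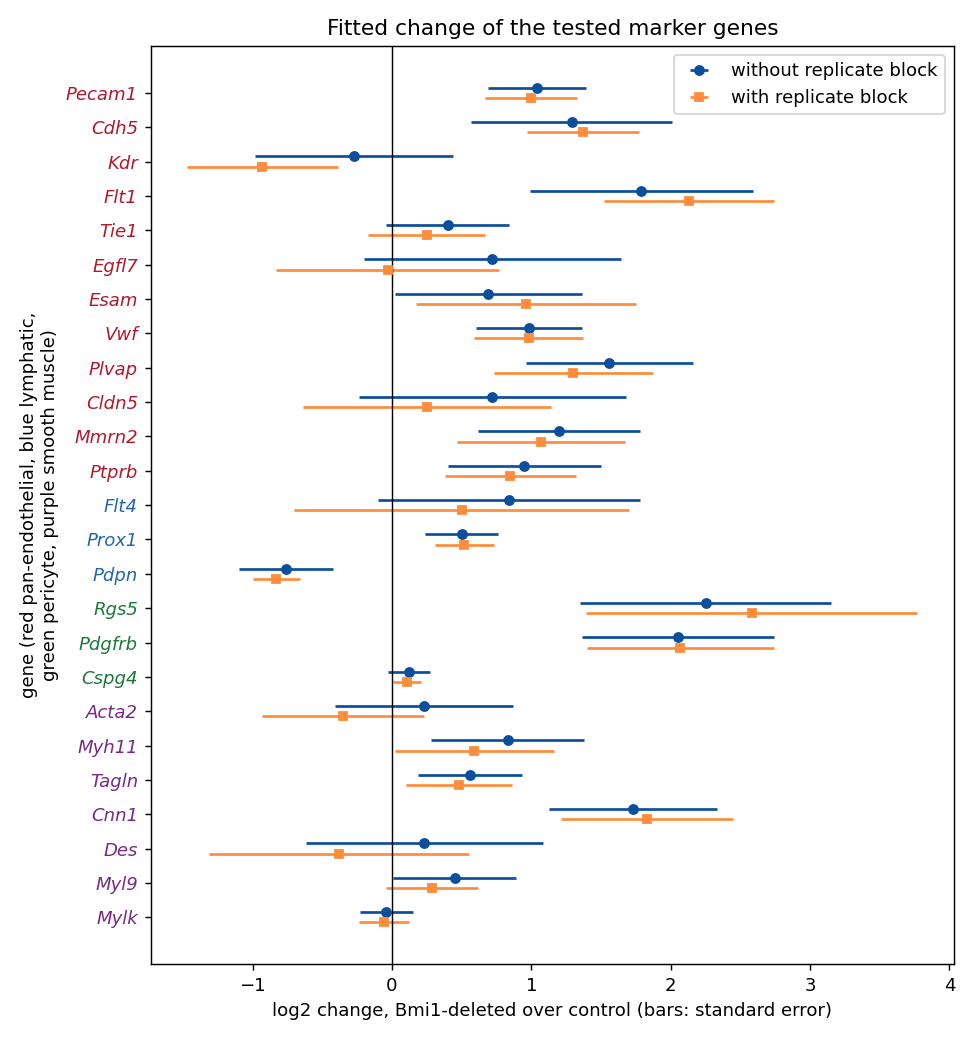
Fitted log2 change (Bmi1-deleted over control; x axis) of each tested marker gene (rows, coloured by class), with its standard error, without (circles) and with (squares) the block. Without the block Rgs5 and Pdgfrb lie farthest to the right, at 2.25 and 2.05, and Pdpn farthest to the left, at −0.76; with it Kdr lies farthest to the left, at −0.93.

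Class sums leaned on 1 library. Bmi1-deleted 1 was the highest of the 8 libraries for 19 of the 25 tested members, against 13.5% of all tested genes. Summed over the 19 endothelial genes, levels were 185, 90.4, 48.6 and 74.2 CPM in Bmi1-deleted 1 to 4, against 55.5, 68.9, 48.9 and 31.7 CPM in control 1 to 4. The mean was 1.94 times control with all libraries and 1.39 times without Bmi1-deleted 1. The smooth muscle sum was 308, 142, 102 and 137 CPM in Bmi1-deleted 1 to 4 and 131, 125, 178 and 115 CPM in control 1 to 4. Its mean was 1.25 times control with Bmi1-deleted 1 and 0.924 times without it, so the direction of this sum turned. Mylk made up 47.1% of the smooth muscle sum. Without Mylk, an exclusion made after the values were seen, the sum was 1.58 times control with all libraries. It was 1.02 times control without Mylk and Bmi1-deleted 1, and so did not turn. Medians of the log2 change moved less for tested endothelial genes, at 0.97 with all libraries (12 genes) and 0.71 without Bmi1-deleted 1 (14 genes). For the 3 tested pericyte genes they were 2.05 and 1.93, while the smooth muscle median was 0.45 with all and −0.10 without that library. Cdh5, Flt1, Esam, Rgs5 and Pdgfrb cleared the count filter in all 4 Bmi1-deleted libraries but not in all control libraries. The endothelial and pericyte medians are thus no support for a rise. The part of the sex of Bmi1-deleted 1, or of any other property of it, was not tested. The endothelial and smooth muscle sums both overlapped between the groups.

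The genes of endothelium in general formed the largest class, and its junction and surface proteins come first. Pecam1 (ENSMUSG00000020717, mm10 chromosome 11, 106654217 to 106750628), the adhesion molecule CD31 of endothelial junctions, had 319, 194, 120 and 125 counts in Bmi1-deleted 1 to 4, against 72, 106, 139 and 56 in control 1 to 4. Control 3 lay above Bmi1-deleted 3 and 4, so the groups overlapped. The mean was 20.5 ± 10.1 CPM in Bmi1-deleted and 9.94 ± 3.81 CPM in control libraries (log2 change 1.04, SE 0.35, n = 4, adjusted p = 0.425). Cdh5, which encodes VE-cadherin of the same junctions, had 151, 164, 43 and 28 counts in Bmi1-deleted and 60, 67, 27 and 5 in control libraries. It was higher in each of the 4 pairs of same-numbered libraries, while the numbers 1 and 2 were above 3 and 4 in both groups (log2 change 1.29, SE 0.72, adjusted p = 0.721, and 0.0936 when replicate number was added as a block).

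The tight junction gene Cldn5 reached 8.16 CPM in Bmi1-deleted 1 and 0.111 to 1.59 CPM in the other Bmi1-deleted libraries, against 0.679 to 3.93 CPM in control libraries. Esam, a junction adhesion molecule, ranged from 1.59 to 4.67 CPM in Bmi1-deleted and 0.642 to 4.22 CPM in control libraries. Neither gene separated the groups. Icam2, a leukocyte adhesion ligand, had 0, 0, 17 and 25 counts in Bmi1-deleted and 4, 0, 11 and 6 in control libraries, and so was at 0 in Bmi1-deleted 1, where most other endothelial genes were highest. Emcn, the endomucin of veins and capillaries, did not exceed 13 counts in any library.

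Receptor genes went different ways. Kdr and Flt1 encode the main receptors for VEGF, KDR carrying most of the growth signal and FLT1 acting largely as a trap for the ligand. Kdr had 132, 28, 15 and 10 counts in Bmi1-deleted and 66, 88, 44 and 31 in control libraries. Outside Bmi1-deleted 1 it was lower than its same-numbered control each time, with a log2 change of −0.27 with all libraries (SE 0.71, adjusted p = 0.971) and −1.69 without Bmi1-deleted 1. Flt1 had 135, 70, 22 and 79 counts in Bmi1-deleted and 11, 41, 1 and 36 in control libraries. It was higher in all 4 pairs, with a log2 change of 1.79 (SE 0.80, adjusted p = 0.593, 0.0912 with the block). Whether Kdr and Flt1 differ from each other in their change was not tested.

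The angiopoietin receptor gene Tek ranged from 0.334 to 5.18 CPM in Bmi1-deleted and 0.226 to 1.07 CPM in control libraries, and its partner Tie1 from 2.78 to 13.5 CPM in Bmi1-deleted and 4.30 to 7.42 CPM in control libraries. Ptprb, the phosphatase that restrains TEK, had 177, 80, 27 and 85 counts in Bmi1-deleted and 49, 92, 34 and 21 in control libraries. Its log2 change was 0.95 (SE 0.55, adjusted p = 0.727), and 2 of 4 pairs were higher. The guidance receptor gene Robo4 had 26, 0, 2 and 0 counts in Bmi1-deleted and 0, 6, 0 and 0 in control libraries, too few to compare.

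Among genes of secreted and vessel wall proteins, Vwf, which encodes the clotting protein von Willebrand factor, had 141, 107, 54 and 102 counts in Bmi1-deleted and 60, 62, 62 and 24 in control libraries. Bmi1-deleted 3 fell within the control range and the other 3 lay above it (10.9 ± 3.92 CPM in Bmi1-deleted, 5.53 ± 1.88 CPM in control, log2 change 0.98, SE 0.38, n = 4, adjusted p = 0.516). Plvap, of the diaphragms of fenestrated capillaries, ranged from 1.59 to 11.3 CPM in Bmi1-deleted and 1.13 to 2.67 CPM in control libraries and was higher in all 4 pairs (log2 change 1.56, SE 0.60, adjusted p = 0.503). Plvap overlaps Gtpbp3 on the opposite strand; the library kit marks strand, but whether the counts were strand-specific is not stated. Mmrn2, a matrix protein of endothelium, was also higher in all 4 pairs, at 4.48 ± 2.54 CPM in Bmi1-deleted and 1.94 ± 0.657 CPM in control libraries (SD, n = 4 each, adjusted p = 0.621). Egfl7, a secreted endothelial protein whose gene hosts Mir126a, had 54, 7, 11 and 2 counts in Bmi1-deleted and 15, 16, 7 and 8 in control libraries, and its log2 change of 0.72 was −0.76 without Bmi1-deleted 1. Egfl7 also overlaps Agpat2, and genes that overlap Cdh5, Sox17, Ptprb, Prox1, Abcc9, Des and Mylk may share their reads too.

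The endothelial transcription factors were among the least counted. Erg, an ETS factor of vessel integrity, had 69, 7, 3 and 0 counts in Bmi1-deleted and 10, 7, 8 and 1 in control libraries. Sox17, of arterial endothelium, had 18 counts in all 4 Bmi1-deleted and 4 in all 4 control libraries, and Sox18, of lymphatic and vessel development, had 14 in all Bmi1-deleted and 16 in all control libraries. None of these 3 passed the count filter.

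ETS factors bind sequences around a GGAA core, so the 250 bases before each RefSeq start (GRCm38.p6) were searched on both strands for CCGGAAG and CAGGAAG, motifs that do not overlap each other. A window was given for 21 of the 36 genes. The 13 windows of endothelial genes came from 9 of the 19 genes, with 3 each from Egfl7 and Erg. CAGGAAG stood in 5 of the 13, which belong to 4 genes, Emcn, Egfl7, Erg and Robo4, against 10.8% of 32851 windows of all genes. CCGGAAG stood in 0 of the 13, against 6.91%. Shown here, on the strand of the gene and with the motif or its reverse complement in capitals, are the 4 stretches that lie outside annotated exons, to set the sites of Emcn, Egfl7 and Erg side by side. They lie at chr3:137340884-137340930 (Emcn), chr2:26580973-26581019 and chr2:26583764-26583810 (Egfl7, from separate starts) and chr16:95459362-95459408 (Erg, minus strand). A match is a description of letters and says nothing about binding in these cells.
Emcn: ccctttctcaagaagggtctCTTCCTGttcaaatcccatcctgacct
Egfl7: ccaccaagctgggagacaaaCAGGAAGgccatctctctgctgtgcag
Egfl7: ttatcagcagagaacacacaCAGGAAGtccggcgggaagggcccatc
Erg: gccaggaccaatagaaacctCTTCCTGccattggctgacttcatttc

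The lymphatic genes did not share a direction. Prox1 (chromosome 1, 190118035 to 190170714), the transcription factor that sets lymphatic identity, had 422, 294, 253 and 242 counts in Bmi1-deleted and 254, 193, 298 and 127 in control libraries. The groups overlapped through control 3, and 3 of 4 pairs were higher (32.8 ± 9.18 CPM in Bmi1-deleted, 23.3 ± 7.72 CPM in control, log2 change 0.50, SE 0.26, n = 4, adjusted p = 0.666). Flt4, the receptor for VEGFC on lymphatic cells, had 49, 2, 12 and 15 counts in Bmi1-deleted and 4, 13, 24 and 4 in control libraries. Lyve1, a hyaluronan receptor of lymphatic endothelium and some macrophages, had 5, 16, 0 and 15 counts in Bmi1-deleted and 0, 1, 0 and 2 in control libraries. On the scale per length Prox1 had 13.9 TPM, beside 0.624 for Flt4 and 0.468 for Lyve1.

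Pdpn (ENSMUSG00000028583, chromosome 4, 143267431 to 143299564), the podoplanin gene, was 1 of 3 tested members with a log2 change below 0, beside Kdr and Mylk. It had 191, 186, 354 and 457 counts in Bmi1-deleted 1 to 4, against 396, 458, 484 and 706 in control 1 to 4. Bmi1-deleted 4 lay above control 1, so the groups overlapped, yet every Bmi1-deleted library was below the control of its own number. The mean was 32.7 ± 15.8 CPM in Bmi1-deleted and 55.2 ± 16.9 CPM in control libraries (log2 change −0.76, SE 0.34, n = 4, adjusted p = 0.596). Blocked by replicate number, Pdpn fell (log2 change −0.83, adjusted p = 0.0136), the 1 member of 25 to pass that fit. Of all genes 2.41% passed it, 1.71% higher and 0.706% lower. The block call held without pair 3, whose libraries differed in Xist (adjusted p = 0.0168), and did not without pairs 1, 2 or 4. Replicates 1 and 2 alone also gave a call (−1.17, adjusted p = 0.0316), and replicates 3 and 4 alone did not. The 12 melanocyte markers listed beside these genes summed to 4948 to 10452 CPM in Bmi1-deleted and 8804 to 14821 CPM in control libraries and were lowest, as Pdpn was, in Bmi1-deleted 1 and 2 and highest in control 4. With the block, 9 of these 12 markers also fell. Their part in the Pdpn result was not tested.

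Pericyte genes other than Cspg4 had few counts. Pdgfrb (ENSMUSG00000024620), the receptor for the PDGF-B that endothelium releases, had 91, 133, 67 and 16 counts in Bmi1-deleted and 36, 16, 3 and 18 in control libraries. Bmi1-deleted 1, 2 and 3 were above all controls and Bmi1-deleted 4 was among them (8.13 ± 4.83 CPM in Bmi1-deleted, 1.96 ± 1.45 CPM in control, log2 change 2.05, SE 0.69, n = 4, adjusted p = 0.418). Rgs5, a regulator of G-protein signalling typical of pericytes, was likewise above all controls in Bmi1-deleted 1, 2 and 3 and not in Bmi1-deleted 4, with 63, 103, 72 and 11 counts in Bmi1-deleted and 0, 18, 7 and 26 in control libraries (log2 change 2.25, SE 0.90, adjusted p = 0.542). The block gave adjusted p = 0.163 for Pdgfrb and 0.451 for Rgs5.

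Abcc9 and Kcnj8 encode the subunits of the potassium channel of pericytes. Abcc9 had 31, 48, 6 and 2 counts in Bmi1-deleted and 5, 13, 1 and 8 in control libraries, and Kcnj8 had 17 counts in all Bmi1-deleted and 9 in all control libraries. Higd1b, a mitochondrial protein gene enriched in pericytes, had 1 count in 1 Bmi1-deleted library and 0 in every control library. Pooled over the 5 pericyte genes other than Cspg4, an exclusion made after the values were seen, levels were 21.0, 29.5, 16.1 and 3.29 CPM in Bmi1-deleted and 5.31, 4.84, 1.18 and 5.88 CPM in control libraries. That sum was 4.06 times control with all libraries and 3.79 times without Bmi1-deleted 1, so its size changed little without that library. Bmi1-deleted 2, however, was its highest library, and Bmi1-deleted 4 stood at 0.559 times its same-numbered control. Pdgfrb at 8.13 CPM and Rgs5 at 6.61 CPM made up most of the Bmi1-deleted mean of 17.5 CPM. Pdgfrb is also known in fibroblasts.

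Cspg4 (ENSMUSG00000032911, chromosome 9, 56865033 to 56899870), the proteoglycan NG2, stood far above every other member. It had 5173, 6681, 4403 and 3969 counts in Bmi1-deleted and 5601, 4991, 4012 and 4105 in control libraries, and made up 98.0% of the pericyte sum. Replicates 1 and 2 were above 3 and 4 in both groups, and the groups overlapped throughout (544 ± 94.6 CPM in Bmi1-deleted, 501 ± 71.9 CPM in control, log2 change 0.12, SE 0.15, n = 4, adjusted p = 0.914). Control 1 had 595 CPM of Cspg4, the most of any control, and 0 counts of Rgs5.

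Contractile genes of smooth muscle were all counted in every library. Acta2, the smooth muscle actin, had 241, 89, 38 and 18 counts in Bmi1-deleted and 72, 85, 114 and 62 in control libraries. Its order was mixed, with Bmi1-deleted libraries both above and below the whole control range (log2 change 0.23, SE 0.64, adjusted p = 0.973), and the estimate was −0.35 with the block. Myh11, the smooth muscle myosin heavy chain, had 1118, 418, 206 and 282 counts in Bmi1-deleted and 293, 247, 425 and 188 in control libraries. The value in Bmi1-deleted 1 was 123 CPM, against 22.9 to 41.5 CPM in the other Bmi1-deleted libraries, and the log2 change of 0.83 (SE 0.55, adjusted p = 0.794) was 0.06 without it.

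Des, the intermediate filament desmin, followed Acta2, with 156, 81, 17 and 6 counts in Bmi1-deleted and 28, 60, 109 and 26 in control libraries (log2 change 0.23, SE 0.85, adjusted p = 0.981). Desmin is also a protein of skeletal muscle, whose 12 markers summed to 6.12 to 12.7 CPM in Bmi1-deleted and 5.20 to 9.78 CPM in control libraries, and Myod1, Myog, Pax7 and Myf5 had 0 counts throughout. Tagln, an actin-binding protein, had 89, 71, 89 and 174 counts in Bmi1-deleted and 90, 72, 92 and 41 in control libraries, so the difference (log2 change 0.56, SE 0.37, adjusted p = 0.774) came from the libraries numbered 4. Tagln overlaps Pcsk7 on the opposite strand, and its reads may be shared.

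Cnn1, or calponin, was the 1 member whose groups did not overlap, against 2.79% of all tested genes that were separated and higher and 2.39% that were separated and lower. It had 69, 45, 37 and 24 counts in Bmi1-deleted and 18, 7, 22 and 6 in control libraries, or 2.72 to 7.61 CPM in Bmi1-deleted and 0.679 to 2.35 CPM in control libraries. The margin between Bmi1-deleted 4 and control 3 was 2 counts before scaling, and Cnn1 did not pass the test (log2 change 1.73, SE 0.60, n = 4, adjusted p = 0.437, 0.179 with the block). Myl9, the regulatory light chain of smooth muscle myosin, had 206, 117, 48 and 61 counts in Bmi1-deleted and 94, 103, 44 and 78 in control libraries (log2 change 0.45, SE 0.44, adjusted p = 0.879). Mylk, the kinase that activates that light chain and is widely expressed, had 917, 606, 486 and 639 counts in Bmi1-deleted and 642, 637, 856 and 618 in control libraries. At 72.0 ± 20.9 CPM in Bmi1-deleted and 73.8 ± 12.0 CPM in control libraries (log2 change −0.04, SE 0.19, adjusted p = 0.985) it was the most even of the contractile genes.

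Many smooth muscle genes carry the CArG box, the site of serum response factor. It was searched as above in its strict form, CC and GG around a core of A and T alone. In that form it stood before 1 of the 5 smooth muscle genes with a window, Myl9, against 1.47% of all windows. Boxes with a G or C in the core were not searched, and Myh11 and Tagln had no window. A gene without a match may therefore still carry a box. The stretch at chr2:156775283-156775332 (GRCm38.p6, plus strand) is shown because Myl9 also had the highest level per length of the smooth muscle genes after Mylk, with the box in capitals.
Myl9: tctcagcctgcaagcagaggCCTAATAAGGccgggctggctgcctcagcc

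**Figure D3:**
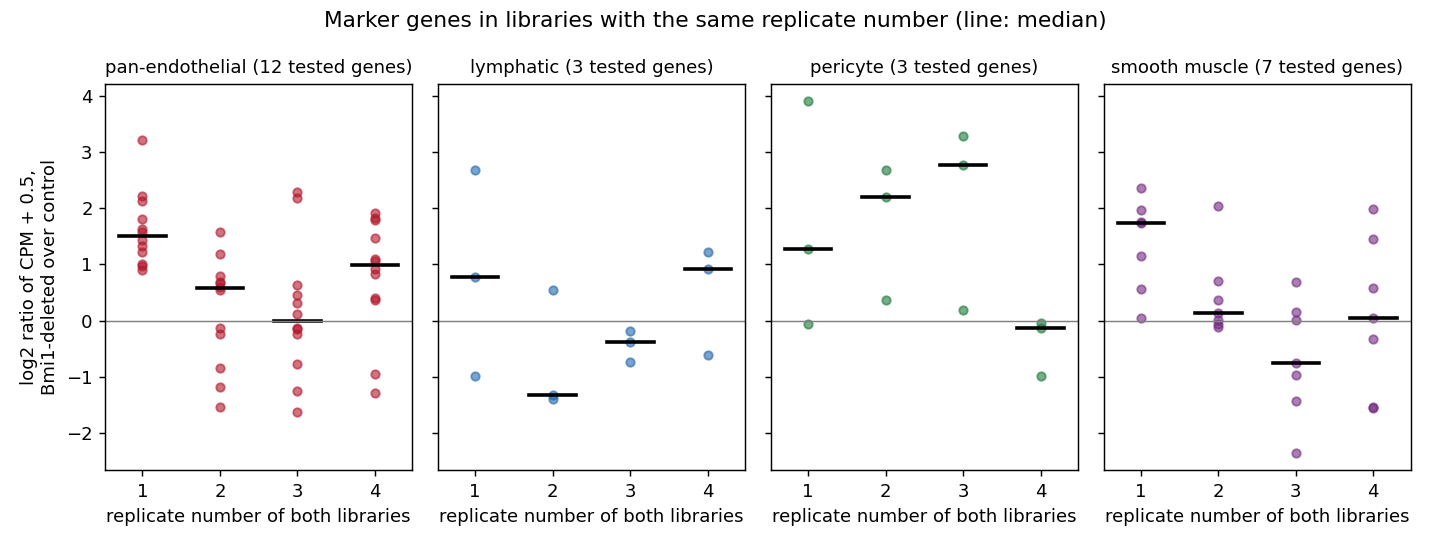
Log2 ratio of CPM + 0.5 (Bmi1-deleted over control; y axis) for each tested marker gene in libraries with the same replicate number (x axis), 1 panel per class, with the median as a line. The 12 endothelial genes are all above 0 for number 1 and spread on both sides of 0 for number 3, and the smooth muscle median is 1.73 for number 1 and −0.76 for number 3.

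Pair by pair, the tested endothelial genes had a median log2 ratio of 1.50, 0.57, −0.01 and 0.98 for replicate numbers 1 to 4, and 12, 7, 6 and 10 of the 12 were higher. The 7 smooth muscle genes had 1.73, 0.13, −0.76 and 0.05, with 7, 5, 3 and 4 higher. The 3 tested pericyte genes had 1.28, 2.19, 2.77 and −0.13. Over all tested genes the 4 medians lay between 0.00 and 0.02. The medians of endothelial and smooth muscle genes were thus highest in pair 1 and lowest in pair 3. Pair 3 was the only pair whose libraries differed in Xist, with 10478 counts in control 3 and 0 in Bmi1-deleted 3. Ddx3y, a Y-linked gene, had 1 count in control 3 and 933 in Bmi1-deleted 3. The part of sex in the values of pair 3 was not tested. The pericyte median rests on genes of unlike order: Rgs5 was highest in pair 1 (3.90), Cspg4 in pair 2 (0.37) and Pdgfrb in pair 3 (3.28).

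Markers of other skin cells differed between the same libraries. The 18 fibroblast markers, of which 15 had counts in every library, summed to 18598, 15473.5, 10926 and 8519 CPM in Bmi1-deleted 1 to 4, against 8783, 7163, 5797 and 5131 CPM in control 1 to 4. Mfap5, Twist2 and Lox were at 0 in 1 or 2 libraries. Of the 16 tested, 0 passed, and with the block 8 were higher and 0 lower, against 1.71% and 0.706% of all tested genes. Over pairs 1 to 4 the fibroblast sum was 2.12, 2.16, 1.88 and 1.66 times control, and the endothelial sum 3.34, 1.31, 0.994 and 2.34 times control. Keratinocyte markers summed to 1863 to 3648 CPM in Bmi1-deleted and 2286 to 2774 CPM in control libraries. Schwann cell markers summed to 4598 to 5979 CPM in Bmi1-deleted and 2852 to 4605 CPM in control libraries. With the block 1 of 12 keratinocyte and 4 of 12 Schwann cell markers were higher, and 0 of either list were lower. Immune markers summed to 76.5 to 129.5 CPM in Bmi1-deleted and 44.5 to 89.6 CPM in control libraries, with 7 of 12 counted in every library and Cd3e, Cd3g, Adgre1, C1qa and C1qb at 0 in 2 to 4 of them. Red cell genes summed to 88.9, 12.1, 12.2 and 16.8 CPM in Bmi1-deleted and 0.956, 9.48, 36.2 and 13.8 CPM in control libraries, so Bmi1-deleted 1 was highest here too. The part of these cell types in the results on vessel genes was not tested.

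**Figure D4:**
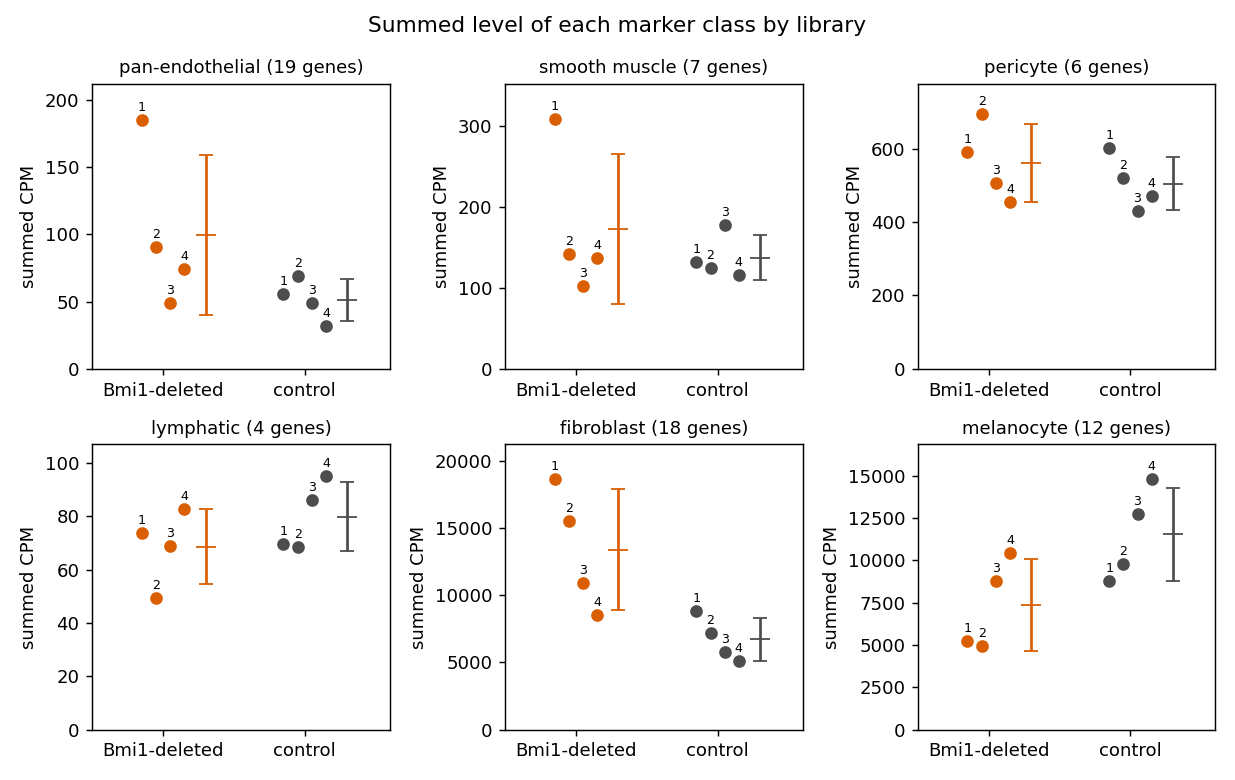
Summed CPM of each marker class by library (points, with the replicate number above; bars show the mean and SD of 4 libraries), Bmi1-deleted left and control right. Bmi1-deleted 1 stands above every other library for endothelial genes (185) and smooth muscle genes (308), the pericyte panel is mostly Cspg4, and the fibroblast and melanocyte panels show 2 other cell types in the same libraries.

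Other genes of the vessel pathways were counted from 4 further lists. Among all tested genes 0.0937% passed without the block, and with it 1.71% rose and 0.706% fell. Of 24 tested angiogenic ligands and co-receptors 0 passed, while the blocked fit called 2 higher and 0 lower (the median log2 change without it was 0.11). Those 2 were Ece1, which activates endothelins, at 274 ± 52.6 CPM in Bmi1-deleted and 171 ± 30.4 CPM in control libraries (adjusted p = 0.144, 0.00219 with the block), and Thbs2, a thrombospondin that limits vessel growth (adjusted p = 0.660, 0.0326 with the block). The most counted of this list, Adamts1 and Thbs1, had log2 changes of 0.15 and 0.36 (adjusted p = 0.828 and 0.935).

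Of 21 tested endothelial transcription and Notch genes 1 rose without the block and 4 rose with it, and 0 fell in either fit (median 0.35). Among all tested genes 0.0874% rose without the block and 1.71% with it. Epas1, the hypoxia-inducible factor 2 alpha known in endothelium, had 65.0, 72.0, 60.9 and 79.1 CPM in Bmi1-deleted and 31.8, 34.5, 34.9 and 41.4 CPM in control libraries (log2 change 0.96, SE 0.15, adjusted p = 0.0190, 0.00136 with the block). The Epas1 groups did not overlap, but the call without the block was lost when Bmi1-deleted 1, 2 or 4 or control 2 or 3 was left out (adjusted p = 0.0509 to 0.0937, with log2 changes of 0.88 to 0.99), in replicates 3 and 4 alone (0.85) and in log2 TPM (0.36). Gata2, a factor of endothelium and blood, had 17.2, 9.14, 9.01 and 10.8 CPM in Bmi1-deleted and 4.14, 1.85, 2.57 and 0.792 CPM in control libraries (2.29, SE 0.47, adjusted p = 0.0994, 0.00530 with the block). Its 4 Bmi1-deleted libraries were all above all controls, and Bmi1-deleted 1 was the highest of them. Groups were separated and higher for 5 of the 21 tested genes of this list and for 2.79% of all tested genes. Of these 5, Gata2 and Hlx cleared the count filter in all 4 Bmi1-deleted libraries but not in all control libraries. Their inclusion favoured a difference, so the count of 5 is no support. Nr2f2, a factor of venous identity, and Hlx, a homeobox gene, passed with the block (adjusted p = 0.00102 and 0.0103). Hlx had 2.11 to 7.60 CPM in Bmi1-deleted and 0.0 to 0.566 CPM in control libraries. It was thus tested through its Bmi1-deleted values alone, and its call is no support. Klf4 and Notch1, the most counted, did not pass in either fit.

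Among 27 tested SRF and contractile genes 0 passed without the block, and with it 1 rose, Cald1, the actin-binding caldesmon (0.66, adjusted p = 0.00458), and 1 fell, Mrtfa, a coactivator of SRF (−0.63, adjusted p = 0.0352). Mrtfa had 27.7 to 34.7 CPM in Bmi1-deleted and 43.8 to 57.0 CPM in control libraries, with no overlap. Among all tested genes 1.71% rose and 0.706% fell with the block, and 2.39% were separated and lower. The median was 0.16, and the cytoskeletal genes Actb and Myh9 stood at 0.00 and 0.02. Of 17 tested genes of mural cell recruitment and identity 0 passed, and with the block 3 rose, Mcam, S1pr3 and Itgb8 (adjusted p = 0.00124, 0.00510 and 0.0202; median of the list without the block 0.41). Mcam, an adhesion molecule of pericytes and of pigment cells, had 417 to 501 CPM in Bmi1-deleted and 258 to 319 CPM in control libraries (log2 change 0.68, SE 0.12, adjusted p = 0.0515 without the block).

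Patterns over the 8 libraries most like those of the class sums were found among all tested genes outside each class, as a description from 16011 candidates. Nearest to the endothelial sum were P2ry10, Edn1 and Ift22 (Pearson r of log2 CPM = 0.96, 0.95 and 0.95). Edn1 encodes endothelin-1, a peptide of endothelium. Nearest to the smooth muscle sum were Wnt11, Lmod1 and Lcp1 (r = 0.95, 0.95 and 0.93), of which Lmod1 is leiomodin of smooth muscle. For both sums the high value of Bmi1-deleted 1 weighs on r. The pericyte sum, mostly Cspg4, was nearest to Capg, Cdc42ep1 and Psmb9 (0.98, 0.97 and 0.97), and the lymphatic sum, of which Pdpn made up 59.2%, to Gm12987, Zfp704 and Cnst (0.97, 0.97 and 0.96).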

How the data were processed

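The authors deposited estimated counts per gene as whole numbers and log2 values that, once the logarithm is undone and 1 subtracted, sum to 1e+06 per library, as TPM do. Per the submitters' processing notes, Salmon 1.2.1 and mm10 were used; the annotation, strand setting and rounding are not stated there. Libraries were PCR-amplified and no molecular identifiers are named, so floors cover counting error only. Symbols and positions came from GENCODE M21 (54166 of 54418 identifiers matched), promoter windows from RefSeq (GRCm38.p6). Counts were filtered with filterByExpr, scaled by TMM and fitted by edgeR 4.0.16 in R 4.3.3 with the robust quasi-likelihood test on all 8 libraries, with Benjamini-Hochberg adjustment over 16011 genes and a threshold of 0.05. The code was checked on simulated data. Alternatives used DESeq2 1.42.0 and limma 3.58.1.

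Same-numbered libraries, by the numbers in the sample titles, deviated together from their group means (correlation 0.124 to 0.186 in the 4 pairs). No label says what the numbers share, so the block stayed the second fit, named where it changed a call. Members and lists were chosen with earlier results of these data known. All members were named, those with a mean of at least 10 CPM, a call or separate groups by count in every library. Other list genes were named when called in either fit or, 2 per list, for the highest mean CPM.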

Additional observations from a re-analysis of the deposited data

Results flagged for a closer look

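In groups of 4 libraries, 11 of 80 sets of values had 1 library far from the other 3, where chance alone gives about 1 in 20 for normally distributed values. Low counts need not follow that distribution, and the 80 sets included class sums over the same genes. The number of sets flagged is thus a description only. The rate of 1 in 20 does not apply at all to Sox17, Robo4 and Kcnj8 in controls and Higd1b in Bmi1-deleted libraries, where the other 3 libraries were at 0. Bmi1-deleted 1 was the high library in 5 of the 11. It had 14.6 CPM of Kdr (next highest of its group 2.78), 7.61 of Erg (0.695), 2.87 of Robo4 (0.222), 46.6 of Prox1 (29.2) and 0.110 of Higd1b, which is 1 count against 0. Among controls, control 1 was high for Emcn (1.38 CPM, next 0.214) and Kcnj8 (0.956, next 0), control 2 for Sox17 (0.412, next 0) and Robo4 (0.618, next 0), and control 3 for Mylk (91.6, next 69.9). Control 4 was low for Vwf (2.72 CPM, next lowest 6.38). Emcn, Kcnj8, Sox17, Robo4, Erg and Higd1b did not pass the count filter.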

How the results depend on the processing

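Without the replicate block 15 genes passed in the whole table. Other settings gave 158 with DESeq2, 380 with no count filter, 4 with limma on log2 TPM, 156 from replicates 1 and 2 alone, and 8 to 45 with any 1 library left out. The replicate block gave 386, and 351, 113, 238 and 189 when pair 1, 2, 3 or 4 was also left out, a setting chosen after seeing the data, as was leaving libraries out of class sums. Of the members 0 passed without the block, and 0 in each fit that left out 1 library. With no filter 5 passed, with the block 1, with the block but without pair 3 2 (Pecam1 and Pdpn), and with replicates 1 and 2 alone 1. The pathway lists had 1 call, against 2 with a filter of 10 CPM, 2 with DESeq2 size factors, 7 with DESeq2, 0 with limma, 9 with no filter, 11 with the block (13, 6, 9 and 7 without pair 1, 2, 3 or 4), 4 from replicates 1 and 2, 0 from replicates 3 and 4, and 0 to 3 with 1 library left out.

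Over the tested members, the named pathway genes and all settings, 686 estimates kept their direction and side of the threshold, 66 passed where they had not, 7 no longer passed and 59 changed sign. The limma fit of log2(TPM + 1) has an offset of 1, which compresses low values, and used no TMM scaling. Protein-coding genes held 10.2 to 12.4% of TPM in Bmi1-deleted and 10.1 to 18.6% in control libraries. The part of these shares in the estimates was not tested. In that fit the endothelial median was 0.23 (0.97 in counts) and the pericyte median 0.32 (2.05). Pecam1 was at 0.28 (1.04), Pdgfrb at 0.32 (2.05) and Rgs5 at 0.38 (2.25). Pdpn at −0.90 (−0.76) and Mylk at −0.30 (−0.04) lay further below 0. Tie1 stood at −0.01, Esam at −0.11, Cspg4 at −0.11, Acta2 at −0.21, Des at −0.09, Thbs1 at −0.08, Adamts1 at −0.11 and Myh9 at −0.12. With the block, Egfl7 stood at −0.03, Acta2 at −0.35 and Des at −0.38. The block without pair 1 gave −0.003 for Tie1, −0.15 for Cldn5, −0.56 for Flt4, −1.07 for Acta2, −1.39 for Des, −0.01 for Myl9 and −0.21 for Thbs1. Without pair 2 it gave −0.51 for Acta2, −0.83 for Des and −0.05 for Myh9, without pair 3 −0.33 for Egfl7 and 0.16 for Mylk, and without pair 4 −0.01 for Tie1, −0.09 for Cldn5, −0.13 for Flt4, −0.01 for Tagln, 0.05 for Actb and −0.02 for Myh9. Replicates 1 and 2 alone gave 0.10 for Kdr, −0.01 for Tagln, 0.27 for Mylk and 0.06 for Actb. Replicates 3 and 4 alone gave −0.30 for Cldn5, −0.01 for Flt4, −1.63 for Acta2, −0.30 for Myh11, −2.50 for Des, −0.17 for Myl9, −0.55 for Thbs1 and −0.03 for Myh9. With 1 library left out, estimates that changed sign ranged from −1.69 to 0.05 for Kdr, −0.76 to 1.08 for Egfl7, −0.65 to 1.51 for Cldn5, −0.16 to 1.52 for Flt4, −0.82 to 0.56 for Acta2, −0.74 to 0.78 for Des, −0.10 to 0.68 for Myl9, −0.25 to 0.08 for Mylk, −0.06 to 0.64 for Thbs1, −0.09 to 0.06 for Actb and −0.05 to 0.05 for Myh9. The cause was not tested. A library at 0 allows up to 3 counts, which limits what can be said of Sox17, Robo4, Kcnj8 and Higd1b.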
